A study of Arabidopsis thaliana with 9 samples.

Results

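The untransformed wild type (WT) of Arabidopsis thaliana is described here from its 3 RNA sequencing libraries, WT replicates 1, 2 and 3, out of 9 libraries in the study. Membership was set by title alone, though the group was picked for description with earlier results of these data known. Each library is labelled as whole seedling grown in vitro, 16 days old, at growth stage 1.04 on the Boyes scale; the accession and the hour of harvest are not given in the sources used here. The other 6 libraries are 3 of 35S-ASCO, a line overexpressing the long noncoding RNA ASCO (AT1G67105) from a viral promoter, labelled 16 days and stage 1.04, and 3 labelled RNAi-ASCO, a line meant to silence it. The age given for replicates 1 and 2 of the latter is 4 days, and for replicate 3 it is 16 days. ASCO stood at 6.58, 3.75 and 2.48 CPM (read pairs per 1000000 counted pairs) in WT replicates 1, 2 and 3, and between 16.7 and 22.8 CPM in the libraries labelled RNAi-ASCO, so these were not below WT. The group is therefore called the libraries labelled RNAi-ASCO.

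A young rosette spends much of its messenger RNA on photosynthesis. Nuclear genes encode the small subunit of Rubisco, the antenna proteins that bind chlorophyll and most enzymes of carbon fixation, and these proteins are imported into the chloroplast. The chloroplast genome encodes other core subunits of photosynthesis. The mitochondrial genome encodes, among others, subunits of its own ATP synthase and NADH dehydrogenase. Transcripts of both genomes are mostly not polyadenylated, or carry a tail that marks them for decay. The libraries were made from RNA selected for poly(A) tails, so they sample nuclear messengers far better than organelle transcripts.

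Counted read pairs came to 27044702 in WT replicate 1, 91794393 in replicate 2 and 57771449 in replicate 3, which was between 88.9% and 91.9% of the pairs parsed. A level is given as CPM, scaled to all counted pairs of a library, when 1 gene is compared between libraries. Between genes it is given as CPM per kb, which is CPM divided by the length of the gene model in kilobases. At 3 pairs, the smallest count treated as detection, the limit was 0.111 CPM in replicate 1, 0.0327 CPM in replicate 2 and 0.0519 CPM in replicate 3. Of 33602 models, 22874 had at least 3 pairs in every WT library, 19301 reached 1 CPM in every one, and 6684 had no pair in any. Among the 19733 genes with a mean of at least 1 CPM, the median level was 13.3 CPM per kb, the 10th percentile was 2.16 and the 99th was 413.

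Lists of organ markers were used to check the labelled tissue. Of 13 root markers, 12 reached 1 CPM in every WT library, with CASP1, a scaffold of the Casparian strip, at 21.9, 23.0 and 17.0 CPM. All 9 vascular markers and all 9 markers of the stomatal lineage did so as well, and the phloem sucrose carrier SUC2 was at 165, 177 and 168 CPM. Of 7 markers of shoot meristem and leaf polarity 5 reached 1 CPM in every library. The meristem genes WUS and CLV3 did not, with means of 0.0123 and 0.0637 CPM. Of 4 trichome markers 3 reached it. Of 7 floral organ markers 1 reached that level, the petal and stamen identity gene PI at 1.33, 1.06 and 1.45 CPM. Of 13 seed markers none did, and 5 of them, the storage protein genes CRB, CRC, SESA1 and SESA3 and the embryo regulator LEC1, had no pair in any library. The highest seed marker was FUS3, an embryo regulator, at 0.444, 0.654 and 0.346 CPM. None of the 3 pollen markers reached the detection limit in any library. The libraries thus hold root, leaf and vascular transcripts and hardly any from flowers or seeds. In whole seedlings, fewer cells of a type and less RNA per cell cannot be told apart.

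The highest nuclear transcript per length was RBCS1A, a small subunit of Rubisco, the enzyme that fixes carbon dioxide. It stood at 10517, 9252 and 10395 CPM per kb in replicates 1, 2 and 3, which is 1.08%, 0.948% and 1.07% of all counted pairs from a single gene. RBCS1A ranked first in all 3 libraries. The other copies followed at 4492 ± 514 CPM per kb for RBCS2B, 2823 ± 471 for RBCS1B and 2727 ± 320 for RBCS3B (SD, n = 3, here and below). Together the 4 genes took 1.98%, 1.72% and 2.06% of the pairs. The copies differ enough in sequence for most read pairs to be told apart: RBCS1A shares 90.4% to 90.6% of its coding bases with the 3 copies on chromosome 5, and these share 96.7% to 97.3% with each other. Among 50-base windows of the longest transcript, 1.48% of RBCS1A, 14.0% of RBCS1B, 21.4% of RBCS2B and 18.3% of RBCS3B also occur in another gene, so the levels of the 3 chromosome 5 copies are uncertain by the pairs lost there.
The stretch from coding base 10 to 129 of each gene (RefSeq, TAIR10.1, minus strand) shows positions by which reads can be assigned. It was picked as the stretch where the chromosome 5 copies differ most, so it is not typical of the whole coding sequence. Capitals mark the 27 of 120 positions at which the 4 genes are not identical. It lies at chr1:25049121-25049240 in RBCS1A, chr5:15385027-15385146 in RBCS1B, chr5:15381850-15381969 in RBCS2B and chr5:15378178-15378297 in RBCS3B.
RBCS1A: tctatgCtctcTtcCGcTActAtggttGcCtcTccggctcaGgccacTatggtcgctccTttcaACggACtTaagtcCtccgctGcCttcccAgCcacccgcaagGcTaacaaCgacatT
RBCS1B: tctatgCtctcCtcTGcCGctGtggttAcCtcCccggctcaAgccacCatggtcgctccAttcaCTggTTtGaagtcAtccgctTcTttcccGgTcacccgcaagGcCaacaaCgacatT
RBCS2B: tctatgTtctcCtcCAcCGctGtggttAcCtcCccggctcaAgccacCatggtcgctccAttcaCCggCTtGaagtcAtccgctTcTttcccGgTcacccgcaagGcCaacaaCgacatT
RBCS3B: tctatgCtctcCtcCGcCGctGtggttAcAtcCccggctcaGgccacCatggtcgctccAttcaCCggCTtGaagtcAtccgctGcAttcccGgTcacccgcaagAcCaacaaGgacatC
In this stretch RBCS1A differs from each of the other copies at 21 positions, while RBCS1B and RBCS2B differ from each other at 5.

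Behind RBCS1A came CAB1 (LHCB1.3), an antenna protein of photosystem II, at 8956, 7462 and 7264 CPM per kb. Replicate 1 was the highest of the 3. Of the 15 highest nuclear genes, 11 belong to the lists of light harvesting, electron transport or carbon fixation, and the 15 together took 5.53%, 4.90% and 5.25% of the pairs. They include PSBR, PSBO1 and PSBP-1 of the water-splitting side of photosystem II, at 3317 ± 143, 2486 ± 169 and 2185 ± 158 CPM per kb. DRT112 (PETE2), the plastocyanin that carries electrons between the photosystems, was at 2154 ± 175 CPM per kb. RCA, the activase that keeps Rubisco working, was at 1844 ± 161 and LHB1B2 (LHCB1.5), an antenna protein, at 1828 ± 355 CPM per kb. The 4 genes outside those lists were THI1, which makes the thiazole part of thiamine, at 2435 ± 96.7 CPM per kb, the RNA-binding protein gene GRP7 at 2291 ± 338, the chloroplast carbonic anhydrase CA1 at 2040 ± 227 and CCL at 1763 ± 85.5. The spread of most of these overlaps that of their neighbours in the order: THI1 and GRP7, for example, have means that differ by less than the SD of GRP7. No gene of the 15 fell below rank 19 in any library.

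**Figure D1:**
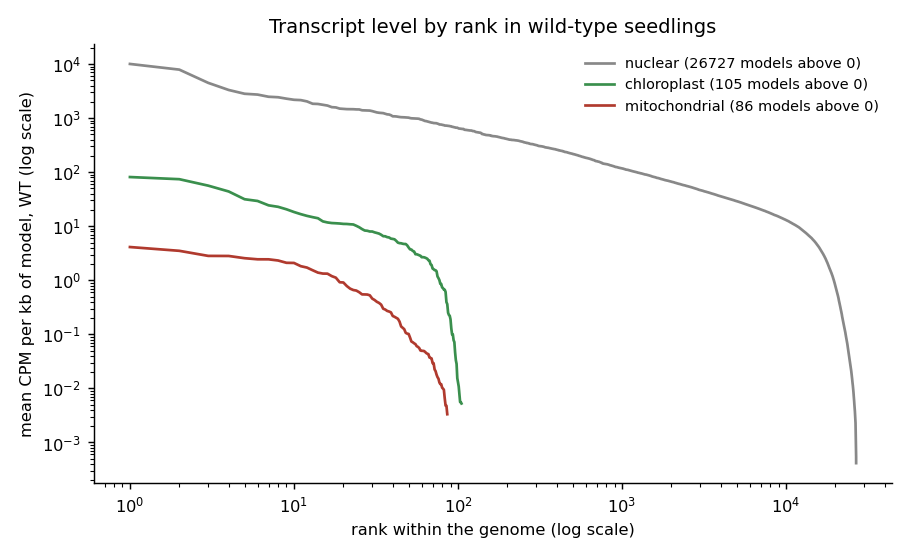
Mean CPM per kb over the 3 WT libraries (vertical axis, log scale) against rank within the genome (horizontal axis, log scale), 1 line each for nuclear, chloroplast and mitochondrial models above 0. The nuclear line starts at 10055 CPM per kb, the chloroplast line at 81.4 and the mitochondrial line at 4.13.

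The photosynthetic machinery was read as whole pathways. The list of light harvesting and electron transport (51 genes) took 5.33% of WT pairs, and its median gene stood at 860 CPM per kb, against 13.3 for all genes of at least 1 CPM. All 51 reached 1 CPM in every library. The lowest was LHCB4.3, a minor antenna form, at 15.01, 13.2 and 14.5 CPM. The Calvin cycle list (20 genes) took 3.82% and had a median of 831 CPM per kb, from RBCS1A down to RPI3, a pentose isomerase, at 249, 222 and 240 CPM. Of 14 photorespiration genes, which salvage the product of Rubisco's reaction with oxygen, the highest was the serine hydroxymethyltransferase SHM1 at 959, 973 and 1038 CPM per kb. The median of that list was 554 CPM per kb. By comparison, 204 genes that RefSeq notes place in the cytosolic ribosome took 3.35%, 3.07% and 3.24% of the pairs, with a median of 197 CPM per kb.

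One photorespiration gene was almost absent. PGLP1 (AT5G36700), the phosphatase that opens the pathway, had 24, 103 and 137 pairs, or 0.887, 1.12 and 2.37 CPM, while the lowest value among the other 13 genes of the list was 142 CPM, that of the catalase CAT2 in replicate 2. Its copy AT5G36790 had 31, 109 and 128 pairs. The coding sequences of both, 1089 bases each, are identical in TAIR10.1, and 94.1% and 96.3% of the 50-base windows of the 2 transcripts occur in another gene. Per the file headers, reads whose best and second-best alignments score equally were removed, so the level of this pair cannot be read from these counts. The first 120 coding bases are shown because they are the same in both genes, at chr5:14424311-14424430 and chr5:14483611-14483730 (TAIR10.1, minus strand, RefSeq).
PGLP1 and AT5G36790: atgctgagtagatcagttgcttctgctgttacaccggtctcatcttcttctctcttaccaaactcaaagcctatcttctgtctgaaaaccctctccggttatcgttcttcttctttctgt
Low values were general among near-identical genes. Protein-coding genes with no shared window (22660 genes) had a median of 7.82 CPM per kb, and those with over 90% of windows shared (172 genes) had a median of 0.0328. Shares in the antenna family are far below 90%. LHCB1.1 (CAB2) has 20.5% of its windows in other genes and was at 153, 77.3 and 187 CPM. LHCB1.3, with 17.0% shared, was at 9350, 7791 and 7583 CPM, and LHCB1.5, with 17.3% shared, had a mean of 1910 CPM. Any part of shared sequence in the level of LHCB1.1 was not tested.

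Protein-coding genes took 99.2% ± 0.0441 of the pairs, from 21636 of 26700 models with at least 3 pairs in every library. Among noncoding classes in RefSeq, 170 ncRNA models took 0.174% ± 0.0143 and 224 lncRNA models took 0.131% ± 0.0082. The highest lncRNA was AT1G25098 at 322 ± 25.4 CPM per kb, rank 294 of all models, and GUT15, a noncoding transcript known for its fast turnover, stood at 183 ± 3.69. ASCO, at 5.43 CPM per kb, ranked 14803rd. The highest models of the miRNA class, which hold the primary transcripts and not the mature miRNAs, were MIR414 at 47.3 ± 4.38 CPM per kb, MIR850 at 33.8 ± 1.97 and MIR398c at 23.4 ± 6.57. The tRNA and rRNA classes were nearly empty: of 623 tRNA models 611 had no pair in any library and none had 3 pairs in every one, and the 4 rRNA models had no pair. By contrast, 40 of 71 snoRNA models and 9 of 13 snRNA models had at least 3 pairs in every library. Of the snoRNA models 69 are under 200 bases and only whole pairs were counted, so their levels are uncertain. Of 3911 pseudogenes 294 were detected in every library, led by SADHU1-1 at 111 ± 11.8 CPM per kb.

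Chloroplast models held a small share of the pairs. The share was 0.0552% in WT replicate 1 (Wilson 95% interval 0.0543% to 0.0561%), 0.0398% in replicate 2 (0.0394% to 0.0402%) and 0.0415% in replicate 3 (0.0409% to 0.0420%), with 14935, 36513 and 23951 pairs behind them. These intervals cover counting error only. Replicate 1 was above the other WT libraries and above all 6 libraries of the ASCO lines, which ranged from 0.0388% to 0.0442%. RBCS1A alone had 19.5, 23.8 and 25.7 times the pairs of all chloroplast models in replicates 1, 2 and 3. The mean was 0.0455% ± 0.00847 in WT, 0.0415% ± 0.00236 in 35S-ASCO (exact permutation test, two-sided, p = 0.8) and 0.0422% ± 0.00208 in the libraries labelled RNAi-ASCO (exact permutation p = 0.9). With 3 libraries against 3, p cannot go below 0.10, and the group differences were smaller than the spread within WT. Both comparisons use the same WT libraries.

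Of 133 chloroplast models 84 were detected in every WT library and 28 had no pair in any. The files and the reference pair few of these identifiers with names, so most are given by identifier. The highest was ATCG01020 at 92.8, 76.8 and 74.5 CPM per kb, from a model of only 159 bases. The longer model ATCG00020 followed at 85.7, 69.9 and 67.0 CPM per kb, and ATCG00490 was at 52.1, 40.5 and 39.4. For each of these, replicate 1 was highest and the other libraries were close to each other. ATCG00630 and ATCG00550, also short models, stood at 56.4 ± 9.99 and 31.6 ± 3.10 CPM per kb. The highest chloroplast model ranked 1573rd of all models per length. Of the 55 chloroplast models with a mean of at least 1 CPM, 52 were highest in replicate 1, whereas 26.7% of all genes of that level were. Their median difference from the other libraries there was 0.43 on the log2 scale.

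Low chloroplast values were more frequent among models that share their length. Among models over 200 bases, 28 have exactly the length of another chloroplast model and a median of 0.0409 CPM, while 47 with a length of their own have a median of 3.01 CPM. The longest such pair, ATCG00860 and ATCG01280 with 6885 bases each, had 1, 4 and 2 pairs and 1, 5 and 1 pairs. ATCG01310, named ribosomal protein L2 in the reference notes, and ATCG00830, both 825 bases, had at most 6 pairs in any library. Equal length does not show equal sequence: ATCG00020 and ATCG00270 share a length of 1062 bases and had means of 78.8 and 8.86 CPM. Plant chloroplast genomes carry a large inverted repeat, whose genes exist in a pair of copies.

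Mitochondrial models took 0.00368% of pairs in WT replicate 1 (Wilson 95% interval 0.00346% to 0.00391%), 0.00300% in replicate 2 (0.00289% to 0.00312%) and 0.00317% in replicate 3 (0.00303% to 0.00332%). The mean was 0.00329% ± 0.000351 in WT, 0.00329% ± 0.000167 in 35S-ASCO (exact permutation p = 1) and 0.00305% ± 0.000172 in the libraries labelled RNAi-ASCO (exact permutation p = 0.4), again within the spread of WT. Of 146 models 39 were detected in every library and 60 had no pair in any. Equal-scoring reads were removed before counting, so models with a nuclear copy may have lost pairs. The highest was ATMG01000 at 3.54, 2.87 and 5.97 CPM per kb. ATMG01080, named in reference notes as subunit 9 of the ATP synthase, followed at 3.51 ± 0.434, and ATMG00990, named as NADH dehydrogenase 3, at 2.83 ± 1.12 CPM per kb. ATMG01370 at 2.82 ± 0.494 and ATMG00650 at 2.56 ± 0.330 were next. The ranges of these 5 overlap in part, and 15838 nuclear genes lay above the highest of them.

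Part of the nuclear genome resembles the mitochondrial one. In 129 nuclear genes over 50% of the 50-base windows also occur in the mitochondrial sequence of TAIR10.1. Together they held 50.5, 41.6 and 40.7 CPM in replicates 1, 2 and 3, more than the mean of 32.9 CPM of all mitochondrial models. Among them were AT2G07709, with 80.03% of its windows in the mitochondrial sequence, at 13.6, 11.6 and 10.4 CPM, and AT2G07711, with 93.0%, at 5.69, 5.20 and 4.34 CPM. Reads with equal best and second-best scores were removed, so pairs from sequence identical in both genomes would be lost from both counts. The submitters' notes name TAIR10, while the windows came from TAIR10.1, and whether reads tied in the alignment was not tested. The levels of these nuclear genes and of the mitochondrial models they resemble are therefore uncertain. Only 2 nuclear genes resembled the chloroplast sequence in this way, and together they had a mean of 0.0123 CPM.

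**Figure D2:**
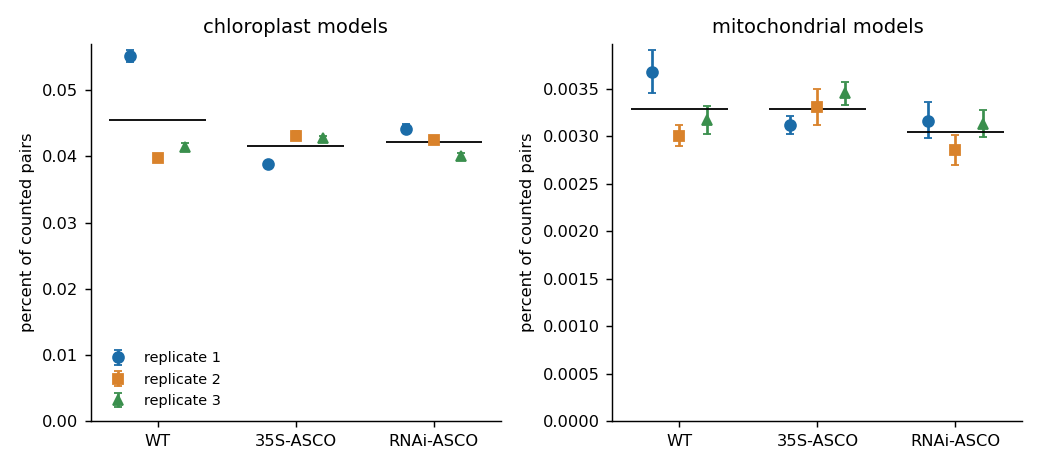
Percent of counted pairs in chloroplast models (left) and mitochondrial models (right), 1 point per library in WT, 35S-ASCO and the libraries labelled RNAi-ASCO, with Wilson 95% intervals; horizontal lines are group means. WT replicate 1, at 0.0552%, is the highest chloroplast share of the 9 libraries.

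The evening genes TOC1, ELF3, ELF4 and LUX of the clock stood above the morning genes CCA1, LHY and PRR9 in all 3 WT libraries. In the plant clock the morning factors CCA1 and LHY repress evening genes such as TOC1 and the evening complex of ELF3, ELF4 and LUX, and are repressed by them in turn. Morning transcripts were near the bottom: CCA1 was at 0.961, 0.675 and 0.640 CPM, LHY at 1.81, 1.80 and 1.70, and PRR9 at 0.407, 0.261 and 0.104. TOC1 was at 195, 198 and 203 CPM, ELF3 at 133, 137 and 126, ELF4 at 38.7, 36.6 and 33.0 and LUX at 34.2, 28.7 and 25.4. Per length, TOC1 at 73.3 ± 1.54 CPM per kb stood over CCA1 at 0.335 ± 0.0776 without overlap between any libraries. GI, an evening gene as well, was low at 13.8, 10.4 and 10.9 CPM. The whole order of 18 clock genes ran from GRP7 at 2291 CPM per kb to PRR9 at 0.142. Over the 16 clock genes with a mean of at least 1 CPM, the median range from the lowest to the highest WT library was 0.30 on the log2 scale, above the 0.19 of all genes of that level. None of the 16 had a range of 1 or more, where 1.86% of all genes did, so that count is near the background. The hour of harvest itself is not given in the sources used here.

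The promoters of clock genes, taken as the 250 bases before the RefSeq gene start in TAIR10.1, were searched for the evening element AAAATATCT on both strands. It occurred in 6 of 18 clock promoters and in 2.36% of 27432 promoters of protein-coding nuclear genes. The 6 are those of PRR5, TOC1, LUX, FKF1, GRP7 and GRP8, and GRP7 holds it 3 times. The promoters of CCA1, LHY, PRR9, PRR7 and LUX hold the G-box CACGTG, which is in 6.49% of all promoters. A match describes letters, not a bound site. The promoters of TOC1 (chr5:24674713-24674962, plus strand), LUX (annotated as PCL1, chr3:17182792-17183041, plus strand) and GRP7 (chr2:9266558-9266807, minus strand) are shown, with capitals marking the element on either strand.
TOC1: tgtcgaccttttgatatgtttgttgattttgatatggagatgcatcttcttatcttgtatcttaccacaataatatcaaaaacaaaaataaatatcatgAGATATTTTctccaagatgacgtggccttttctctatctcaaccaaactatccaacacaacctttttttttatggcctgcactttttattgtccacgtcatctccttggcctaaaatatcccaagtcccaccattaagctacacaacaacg
LUX: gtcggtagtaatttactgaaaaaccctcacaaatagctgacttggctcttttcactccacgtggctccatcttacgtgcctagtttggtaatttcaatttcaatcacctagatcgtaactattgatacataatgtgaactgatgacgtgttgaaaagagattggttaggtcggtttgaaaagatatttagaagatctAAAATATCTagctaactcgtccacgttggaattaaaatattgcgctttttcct
GRP7: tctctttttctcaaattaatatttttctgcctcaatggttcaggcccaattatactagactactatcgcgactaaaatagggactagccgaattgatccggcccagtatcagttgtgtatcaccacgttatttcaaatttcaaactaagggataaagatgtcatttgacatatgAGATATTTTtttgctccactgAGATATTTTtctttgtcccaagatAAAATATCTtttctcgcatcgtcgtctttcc
TOC1 and LUX hold the element once, at 73.3 and 21.3 CPM per kb.

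**Figure D3:**
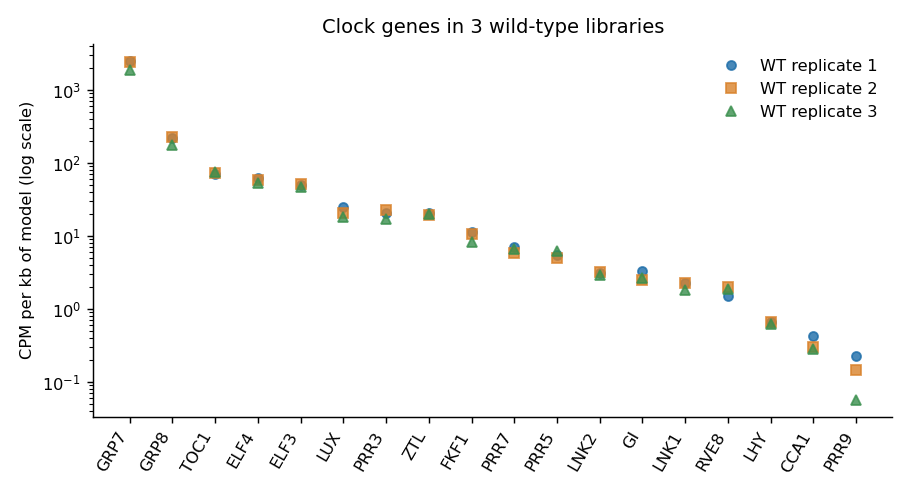
CPM per kb (log scale) of 18 clock genes in WT replicates 1, 2 and 3, 1 symbol per library, ordered by mean level. Mean levels run from GRP7 at 2291 to PRR9 at 0.142 CPM per kb.

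The WT libraries were alike for most genes. Among 19733 genes with a mean of at least 1 CPM, the median range from the lowest to the highest library was 0.19 on the scale of log2(CPM + 0.5), and 367 genes (1.86%) had a range of at least 1. The common biological coefficient of variation, edgeR's estimate of spread beyond counting error, was 11.7% in WT, beside 11.2% in 35S-ASCO and 7.71% in the libraries labelled RNAi-ASCO. Without replicate 3 it was 8.27% in WT, without replicate 2 it was 11.2%, and without replicate 1 it was 14.2%. Spread depended on level: the median coefficient of variation was 14.5% for genes of 1 to 5 CPM, where counting alone gives 9.45%, and 5.58% for genes of 20 to 100 CPM, where counting gives 2.36%. Of the pairs of libraries, replicates 1 and 2 differed by 1 or more on the log2 scale in 40 genes, replicates 1 and 3 in 210, and replicates 2 and 3 in 279. The count of 367 dropped to 40 without replicate 3 and to 212 without replicate 2.

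The steadiest genes of at least 50 CPM were TPL, a transcriptional co-repressor, at 237, 237 and 237 CPM, ACT7, an actin of young tissue, at 464, 465 and 465, the kinesin FRA1 at 103, 103 and 102, AT2G21250 at 79.2, 79.4 and 79.2, and FNR1, which passes electrons from ferredoxin to NADP, at 950, 953 and 953. Being the extreme of many genes, they were picked for this closeness. Of 11 genes in common use as references for quantitative PCR, none had a range of 1 on the log2 scale, and the median range was 0.10, compared with 0.19 for all genes. Aquaporins, channels for water, were about as steady, with a median range of 0.11 over 12 genes. PIP1;2 stood at 775, 793 and 771 CPM. All these reference genes and aquaporins had means of at least 30.1 CPM, while the 0.19 covers lower genes too. The median range was 0.15 for all genes of 20 to 100 CPM and likewise for those of 100 to 1000 CPM. At the other end, the abscisic acid and cold list had a median range of 0.82 over 11 genes and nutrient genes 0.64 over 23.

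The 12 genes with the widest range fell into a few sets. Iron genes were highest in replicate 2. BHLH100, a transcription factor that switches on iron uptake, was at 22.8, 143 and 31.5 CPM in replicates 1, 2 and 3. FRO2, the ferric reductase of the root surface, was at 13.5, 71.6 and 38.8, and CYP82C4, a cytochrome P450 known from iron-deficient roots, at 9.24, 83.0 and 36.6 CPM. AT1G47400 was at 14.3, 43.9 and 8.50. For FRO2 and CYP82C4 the library farthest from the others was replicate 1, where both were lowest. Their log2 differences from the mean of the other libraries were -1.92 and -2.51 there, and 1.62 and 2.14 in replicate 2. Of 23 nutrient genes with a mean of at least 1 CPM, 11 were highest in replicate 2, where 42.8% of all genes were. Another 8 were lowest there, where 25.9% of all genes were. The iron genes of that list were picked out after their values were seen. Several had the same order of libraries or nearly so. The related factor BHLH38 was at 22.0, 103 and 22.0 CPM, BHLH39 at 21.8, 74.7 and 20.5, and the iron transporter IRT1 at 29.6, 122 and 60.2. Their partner FIT was at 11.6, 15.7 and 11.1 CPM. FER1, which encodes the iron store ferritin, went the other way, at 59.97, 30.0 and 51.9 CPM. Replicate 2 was thus 5.28 times the mean of the other WT libraries for BHLH100, 4.70 times for BHLH38 and 2.71 times for IRT1, and 0.537 times for FER1. In the 6 libraries of the ASCO lines IRT1 ranged from 38.7 to 61.5 CPM and BHLH100 from 45.8 to 130, so replicate 2 was above, and replicate 1 below, all of them for both genes; replicate 3 was below them for BHLH100.

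The 250 bases before the start of these 3 regulators are shown because the genes moved together between libraries. BHLH38 and BHLH39 are neighbours at chr3:21085246-21085495 and chr3:21087711-21087960 and BHLH100 is at chr2:17199455-17199704, all on the minus strand of TAIR10.1 (RefSeq). Capitals mark the G-box CACGTG, searched on both strands. It is in the promoters of BHLH38 and BHLH100 and not in that window of BHLH39, and in 6.49% of all promoters. These are the only 2 of the 25 nutrient genes with it. The windows of IRT1, FRO2, FIT and FER1 do not hold it.
BHLH38: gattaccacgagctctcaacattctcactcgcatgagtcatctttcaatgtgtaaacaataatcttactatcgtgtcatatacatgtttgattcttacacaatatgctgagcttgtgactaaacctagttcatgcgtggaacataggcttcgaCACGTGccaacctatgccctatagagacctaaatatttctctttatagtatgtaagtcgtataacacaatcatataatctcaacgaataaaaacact
BHLH39: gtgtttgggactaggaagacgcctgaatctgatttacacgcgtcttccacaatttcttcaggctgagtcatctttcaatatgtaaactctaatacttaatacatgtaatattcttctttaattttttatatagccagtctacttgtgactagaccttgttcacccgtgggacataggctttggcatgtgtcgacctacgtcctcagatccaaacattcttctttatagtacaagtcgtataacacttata
BHLH100: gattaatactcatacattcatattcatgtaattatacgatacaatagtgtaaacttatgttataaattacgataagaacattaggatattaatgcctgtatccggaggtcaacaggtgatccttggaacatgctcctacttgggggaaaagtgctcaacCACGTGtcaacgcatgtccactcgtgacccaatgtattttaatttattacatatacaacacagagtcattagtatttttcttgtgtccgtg
For BHLH39, replicate 2 was 3.54 times the mean of the other WT libraries.

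A second set was high in replicate 3. TCH4, an enzyme that remodels xyloglucan in the cell wall and responds to touch, was at 21.6, 30.0 and 131 CPM. EXO and PHI-1, related genes linked to growth, were at 31.9, 40.3 and 182 CPM and at 3.70, 4.29 and 25.0 CPM. BCB, a blue copper-binding protein, was at 2.03, 2.53 and 13.7, and AT4G12490, of the lipid-transfer cluster with AZI1 and EARLI1, at 1.70, 2.77 and 11.9. AZI1 and EARLI1 were also highest there, AZI1 at 4.22, 5.49 and 14.6 CPM and EARLI1 at 8.58, 11.2 and 24.4. The calmodulin-like TCH2 was at 17.5, 24.2 and 38.3 CPM, and ZAT12, a zinc finger gene of stress responses, was lowest in replicate 3 at 8.99, 11.1 and 3.64. In the list of rapid stress and touch genes, these and TCH4 were the 3 of 13 genes with a range of at least 1, which 1.86% of all genes had. The median range of that list was 0.37, against 0.19 for all genes. Of the 13, 7 were highest in replicate 3, where 30.5% of all genes were, and 6 in replicate 2, where 42.8% were. In replicate 3, 4 of the 13 were lowest, where 41.2% of all genes were. The list was thus split between libraries. WRKY40, at 4.40, 4.79 and 4.26 CPM, had one of the smaller ranges. In the ASCO lines TCH4 ranged from 19.6 to 201 CPM and BCB from 2.31 to 21.0, so replicate 3 lay within their range for both. EXO ranged from 16.3 to 167 CPM there and PHI-1 from 2.07 to 19.1, so replicate 3 was above all 6 of those libraries for both. For AT4G12490 the ASCO lines lay lower than every WT library, at 0.118 to 0.559 CPM.

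A further set was low in replicate 3. CYP82C2, which acts in the synthesis of indole defence compounds, was at 22.7, 44.5 and 6.56 CPM, AT1G26390 at 19.3, 40.1 and 4.85, and AT3G28510 at 26.1, 42.2 and 6.77. PAD3, the last enzyme of camalexin synthesis, was at 18.7, 21.4 and 6.20 CPM. DIN2, a beta-glucosidase, was at 8.32, 12.4 and 2.28, and AT5G39670 at 5.25, 8.40 and 1.64. For each of these 6 genes, replicate 3 was below all 8 other libraries of the study. The defence list, which holds PAD3, was not low there as a whole. Of its 13 genes with a mean of at least 1 CPM, 4 were lowest in replicate 3, where 41.2% of all genes were. Another 5 were highest there, where 30.5% of all genes were. The cold and drought genes COR15A, at 133, 216 and 67.3 CPM, KIN1, at 7.84, 10.7 and 4.52, and RAB18 (AT5G66400), at 8.69, 11.6 and 4.64, were lowest in replicate 3 as well, and so was the chaperone HSP90.1 at 17.7, 19.5 and 7.65. Of the 11 genes in the abscisic acid and cold list, 9 were highest in replicate 2, where 42.8% of all genes were highest, and 7 were lowest in replicate 3, where 41.2% of all genes were lowest.

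**Figure D4:**
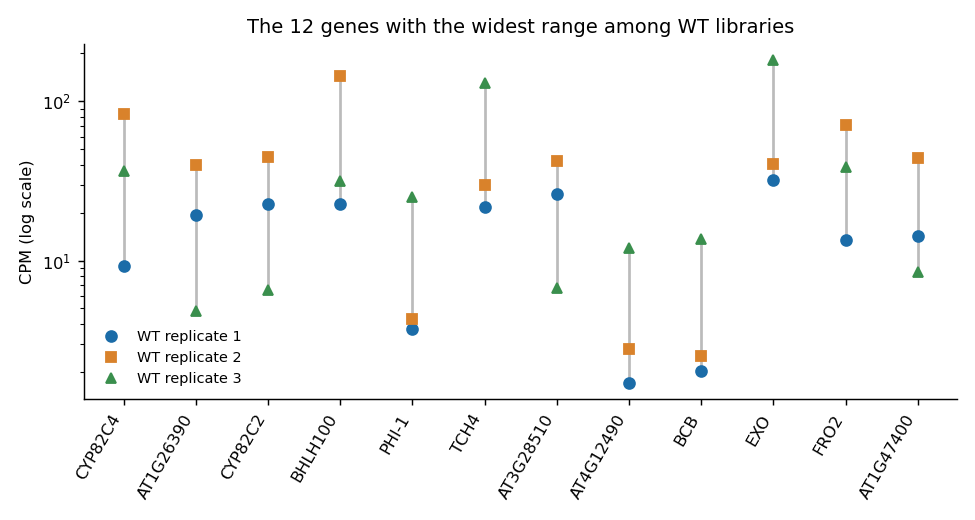
CPM (log scale) in WT replicates 1, 2 and 3 of the 12 genes with the widest range over the WT libraries among genes of at least 5 CPM; grey lines join the lowest and highest library. In 8 of the 12 genes replicate 3 is the library farthest from the others; BHLH100 reaches 143 CPM in replicate 2 and TCH4 131 CPM in replicate 3.

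Replicate 1 stood apart in fewer genes. Among genes of at least 5 CPM whose level in 1 library differed by 1 or more on the log2 scale from the mean of the other 2, replicate 3 was the odd one in 112 (55 higher, 57 lower), replicate 2 in 21 (18 higher, 3 lower) and replicate 1 in 4, all lower. The genes highest in replicate 1 by that measure were NEET, an iron-sulfur protein gene, at 11.6, 4.06 and 7.75 CPM, AT4G22505 at 135, 72.7 and 80.4, BGLU28 at 8.99, 8.06 and 3.03, the protease inhibitor TI1 at 33.7, 30.5 and 12.4 and AT4G22490 at 89.3, 47.1 and 59.5. For BGLU28 and TI1 the value of replicate 2 is nearly as high. Genes lowest in replicate 2 were AIR1 at 11.1, 9.67 and 45.0 CPM, NEET, CAB2, PHI-1 and the glutathione transferase GSTF14 at 8.87, 7.89 and 31.3, of which AIR1, PHI-1 and GSTF14 are also the genes in which replicate 3 was high.

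Small differences ran through whole pathways. In replicate 1, 44 of 51 light harvesting and electron transport genes were at their highest of the WT libraries, where 26.7% of all genes were, with a median difference of 0.22 on the log2 scale. All 12 genes of photosystem I subunits in the list were highest there, for example PSAF at 1260, 789 and 1015 CPM. The chloroplast share was highest in the same library, and it is also the smallest library; their part in the difference was not tested. In replicate 3, 12 of 14 photorespiration genes and 10 of 13 glucosinolate genes were at their highest, where 30.5% of all genes were, with median differences of 0.10 and 0.20. The myrosinase TGG1, which cleaves glucosinolates, was the highest of the latter at 2740, 2638 and 2883 CPM. Stomatal lineage markers were lowest in replicate 2 in 7 of 9 genes, where 25.9% of all genes were, at a median difference of -0.30, such as SPCH, the factor that starts the lineage, at 6.73, 4.40 and 6.13 CPM.

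**Figure D5:**
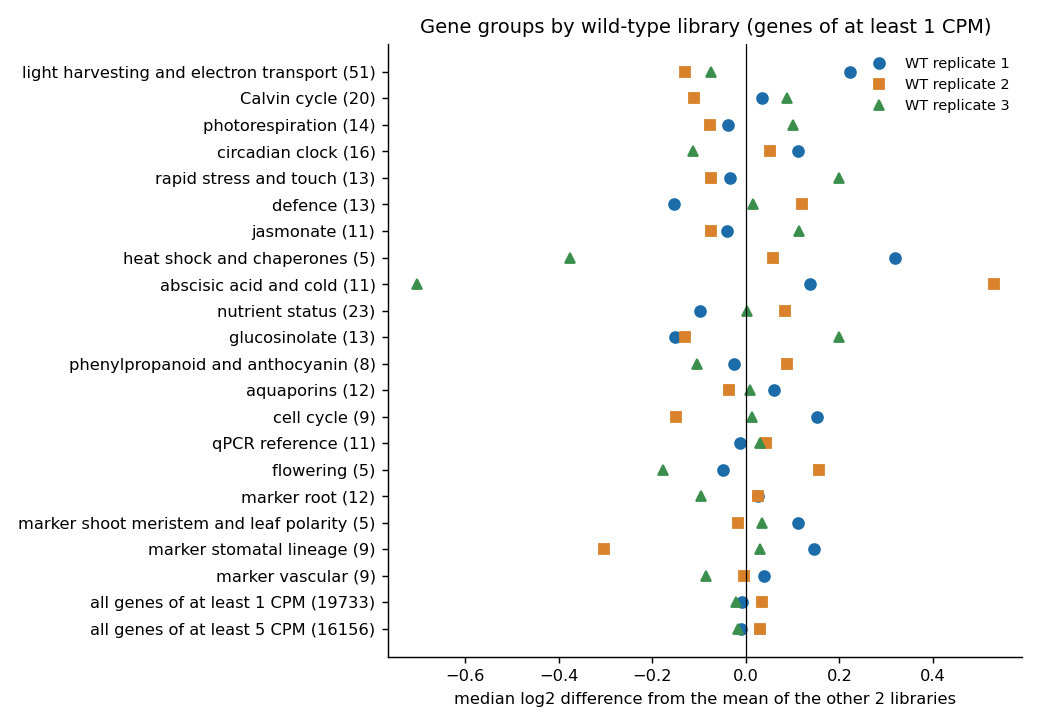
Median log2 difference of each WT library from the mean of the other 2 (horizontal axis) for gene groups with at least 5 genes of 1 CPM or more (number in brackets); 1 symbol per library. The abscisic acid and cold group spans -0.70 in replicate 3 to 0.53 in replicate 2, while all genes lie between -0.02 and 0.03.

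Where WT lay against the ASCO lines was tested with edgeR's quasi-likelihood test over 22719 genes with Benjamini-Hochberg adjustment at 0.05, and both comparisons share the WT libraries. Of 18 clock genes, 12 were called higher in the libraries labelled RNAi-ASCO than in WT, where 11.8% of all genes tested were called in either direction, 6.96% higher and 4.82% lower. In 35S-ASCO 6 of the 18 were called higher, where 1.67% of all genes were called, 1.36% higher and 0.313% lower. No clock gene was called lower in either line. The gene lists were chosen with earlier results of these data known, so the list counts given here are not an independent test. GI was 2.41 ± 0.17 (log2, SE) higher in the libraries labelled RNAi-ASCO (adjusted p = 0.000111) and 1.54 ± 0.17 higher in 35S-ASCO (adjusted p = 0.00613). TOC1 ranged from 245 to 282 CPM in all 6 libraries of the lines, above the 195 to 203 CPM of WT. The light harvesting list had 25 of 51 genes called higher in the libraries labelled RNAi-ASCO, while for 35S-ASCO the count was 0; whether the lines differ in this was not tested here. Of 11 jasmonate genes 5 were called higher in 35S-ASCO; for the other line the count was 0. Labelled age differs in the RNAi-ASCO group: without its libraries labelled 4 days, 2 clock genes and no light harvesting gene were called, with 1 library left, which is assumed to vary like the other groups. Leaving out WT replicate 1 left 1 clock gene and 1 jasmonate gene called in 35S-ASCO, as leaving out 35S-ASCO replicate 2 left 1 and 2. In the libraries labelled RNAi-ASCO the clock count was 9 to 13 and the light harvesting count 7 to 30 when any single library was left out.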

How the data were processed

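Whole seedlings of 3 genotypes gave 9 poly(A)-selected, stranded, paired-end libraries, per the labels' protocols. The authors deposited counts of read pairs and of single reads per gene model, 1 model per gene, with the model length. Per the file headers, only properly paired reads on 1 model were counted, singletons were treated as unmapped, and reads with equal best and second-best scores were removed. TopHat2, Bowtie2 and TAIR10 are named in the submitters' processing notes. Pair counts were scaled here to CPM over all counted pairs and divided by model length.

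Names came from RefSeq (TAIR10.1), which holds 32835 of 33602 identifiers (97.7%). The comparisons used edgeR 4.0.16 (TMM, filterByExpr, genotype as the only factor, all 9 libraries), with DESeq2 1.42.0 as an alternative, and R 4.3.3; the fit was tested on simulated data. Nothing in the labels says that replicates came from separate cultures beyond calling them biological, so p-values measure the spread between these samples.

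Named genes are the 15 highest nuclear and 5 highest genes of each organelle per length, the 12 widest and 5 narrowest ranges, 5 rises and 5 falls per WT library, ASCO, and members of gene lists. The libraries described, the lists and this rule were chosen with earlier results of these data known.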

Additional observations from a re-analysis of the deposited data

How the results depend on the processing

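Of 94 alternative values, those not given here kept their direction and moved by less than the spread between libraries, or, for counts, by less than 1.5 times. The 100 highest genes took 15.7% of WT pairs, and 18.7% as a share of TPM; the chloroplast and mitochondrial shares were 0.112% and 0.00724% on that scale. Genes with a log2 range of at least 1 numbered 188 at a minimum of 5 CPM, and 40 to 282 when a WT library was left out. The common coefficient of variation ranged from 8.27% to 14.2% in the same way.

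Genes called in 35S-ASCO against WT numbered 379, but 64 when its 6 libraries were fitted alone, 1301 with DESeq2, and 25 to 611 when a library was left out (25 without WT replicate 1, 26 without 35S-ASCO replicate 2). In the libraries labelled RNAi-ASCO 2677 genes were called, 995 to 3025 when a library was left out, and 103 without those labelled 4 days, an alternative chosen after seeing the data. The cause was not tested. With the replicate number as a block, 342 and 2438 genes were called. Same-numbered libraries did not deviate together (correlations of -0.0232 to 0.0765), and not every library correlated best with its own number, so the numbers were not taken as pairs.

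Depth limits low genes: WT replicate 1 has the fewest pairs, and 3 pairs there are 0.111 CPM.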
